A study of Mus musculus with 17 samples.

Results

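The 36 genes described here drive or mark the cell division cycle, and they were taken by symbol as a set: 3 cyclins of the G1 phase, 10 genes of DNA replication, 21 genes of the G2 phase and mitosis, and 2 inhibitors of cyclin-dependent kinases. All 36 symbols were found among the 52373 gene identifiers that both sequencing batches list. The RNA was bound to ribosomes and came from the corpus callosum, a bundle of myelinated axons that links the hemispheres. The mice were male, aged 8 to 9 weeks at the start of feeding, and of the genotype GFAP-Cre+/- Rpl22HA/wt, in which Cre recombinase under a GFAP promoter tags the ribosomal protein Rpl22 with an HA epitope so that ribosomes can be pulled down. Mock and cuprizone mice both carried these alleles. Cuprizone, a copper chelator that kills oligodendrocytes, made up 0.2% of the chow for 5 weeks. Samples were taken at 5 weeks, at 5.5 weeks (0.5 weeks after the return to normal chow) and at 7 weeks (2 weeks after it), each time beside mock mice of the same age on a normal diet. The 5-week libraries are labelled batch 1 and the later ones batch 2, so week 5 and its batch cannot be told apart.

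A cell enters the cycle when D-type cyclins and then cyclin E activate cyclin-dependent kinases, which inactivate the RB protein and free E2F transcription factors to switch on replication genes. Mitotic genes are switched on later, in G2, by the B-MYB and FOXM1 factors together with the MuvB complex, whose DNA element is called the CHR, beside CCAAT boxes that bind NF-Y. Most astrocytes of the adult brain do not divide, while oligodendrocyte precursors and microglia do, and astrocytes can divide again after injury.

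The deposited table holds 17 libraries, but 8 of them repeat another library of their group apart from small added integers. The comparisons therefore rest on 9 libraries: 3 cuprizone and 2 mock at 5.5 weeks, and 1 of each at 5 weeks and at 7 weeks. Their total counts were 20797535 to 30400048. Levels are CPM, counts set to a common library size by the TMM method within each week, so levels of different weeks are not on the same scale. The cell type label was checked against markers. In the 5.5-week mock libraries the astrocyte genes Gfap and Slc1a3 had 1114 to 1176 and 1121 to 1307 CPM, but the neuronal gene Snap25 had 4697 to 5441 CPM. RNA of other cell types was thus present, no input library was compared, and the cell type from which a cell cycle transcript came was not tested. In bulk samples, more dividing cells and more RNA per dividing cell cannot be told apart. The 7-week cuprizone library stands apart from the other 8. It had 34576 genes with a count against at most 23980, and 844 against 52.9 CPM summed over 10 microglial markers in the 7-week mock library.

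The stretches upstream of the start site of 6 genes are shown because the sets differ there in their letters. In addition, 4 of the 5 mitotic genes among them gave similar differences in every pairing of the 5-week columns. Some of these columns repeat another, so the similarity is partly fixed in advance. The stretches were chosen after the values of the genes were seen. Each is the 150 bases before the start in RefSeq (build GRCm38.p6), 5′ to 3′ on the gene's strand. For Prc1 the more downstream of its listed starts was used. Capitals mark the CHR letters, the CCAAT box or an E2F site, on either strand.

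Prc1, chr7:80294326-80294475, + strand: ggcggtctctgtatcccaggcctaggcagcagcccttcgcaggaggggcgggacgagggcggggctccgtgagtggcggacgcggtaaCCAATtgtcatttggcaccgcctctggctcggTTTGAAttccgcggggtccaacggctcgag
Cdk1, chr10:69352913-69353062, - strand: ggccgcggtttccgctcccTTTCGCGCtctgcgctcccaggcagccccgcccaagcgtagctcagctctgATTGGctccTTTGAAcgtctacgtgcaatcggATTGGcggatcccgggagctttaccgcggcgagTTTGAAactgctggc
Top2a, chr11:99024190-99024339, - strand: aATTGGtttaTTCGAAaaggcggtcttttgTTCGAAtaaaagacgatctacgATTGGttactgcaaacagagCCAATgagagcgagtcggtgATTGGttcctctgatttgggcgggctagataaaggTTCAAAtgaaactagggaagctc
Mki67, chr7:135716380-135716529, - strand: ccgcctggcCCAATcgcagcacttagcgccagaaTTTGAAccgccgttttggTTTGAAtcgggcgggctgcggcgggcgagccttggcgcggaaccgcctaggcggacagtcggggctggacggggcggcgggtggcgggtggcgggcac
Ube2c, chr2:164769779-164769928, + strand: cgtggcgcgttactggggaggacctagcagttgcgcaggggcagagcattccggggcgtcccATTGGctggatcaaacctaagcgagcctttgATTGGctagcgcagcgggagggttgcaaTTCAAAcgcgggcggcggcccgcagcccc
Mcm6, chr1:128359706-128359855, - strand: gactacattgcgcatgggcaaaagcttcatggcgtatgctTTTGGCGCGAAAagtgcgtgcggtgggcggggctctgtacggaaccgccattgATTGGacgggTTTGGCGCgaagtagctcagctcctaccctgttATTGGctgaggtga

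Promoter windows of 300 bases, from 250 before to 50 after the start, were listed for 29 of the 36 genes. The CHR letters TTTGAA or TTCGAA occurred in 14 of 17 mitotic genes and in 2 of 9 replication genes, against 19.4% of 27025 gene promoters. The letters CCAAT occurred in 16 of the 17 and 8 of the 9, against 37.9%. Both together occurred in 14 of the 17 and 2 of the 9, against 7.70%. An E2F site, searched as TTTCCCGC, TTTGGCGC, TTTCGCGC or TTTGCCGC, occurred in 4 of the 9 replication genes and in 1 of the 17 mitotic genes, Cdk1, against 2.32%. In the Mcm6 stretch 2 E2F matches overlap each other. Both strands were searched, and a match describes letters, not a bound factor.

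Most mitotic genes were less abundant than the rest of the set. Per kilobase of exon, the mean mock level at 5.5 weeks was 26.7 CPM for Ccnd1, 22.9 for Pcna and 14.8 for Ccnd2. It was 7.18 for Cdkn1a, 6.47 for Ccne1 and 6.16 for Cdkn1b. Replication genes other than Pcna lay between 0.623 (Tyms) and 5.98 (Mcm4). The 21 mitotic genes lay between 0.0823 (Bub1) and 1.54 (Cdc20), with Mki67 at 0.228 and Top2a at 0.559 CPM per kilobase.

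**Figure D1:**
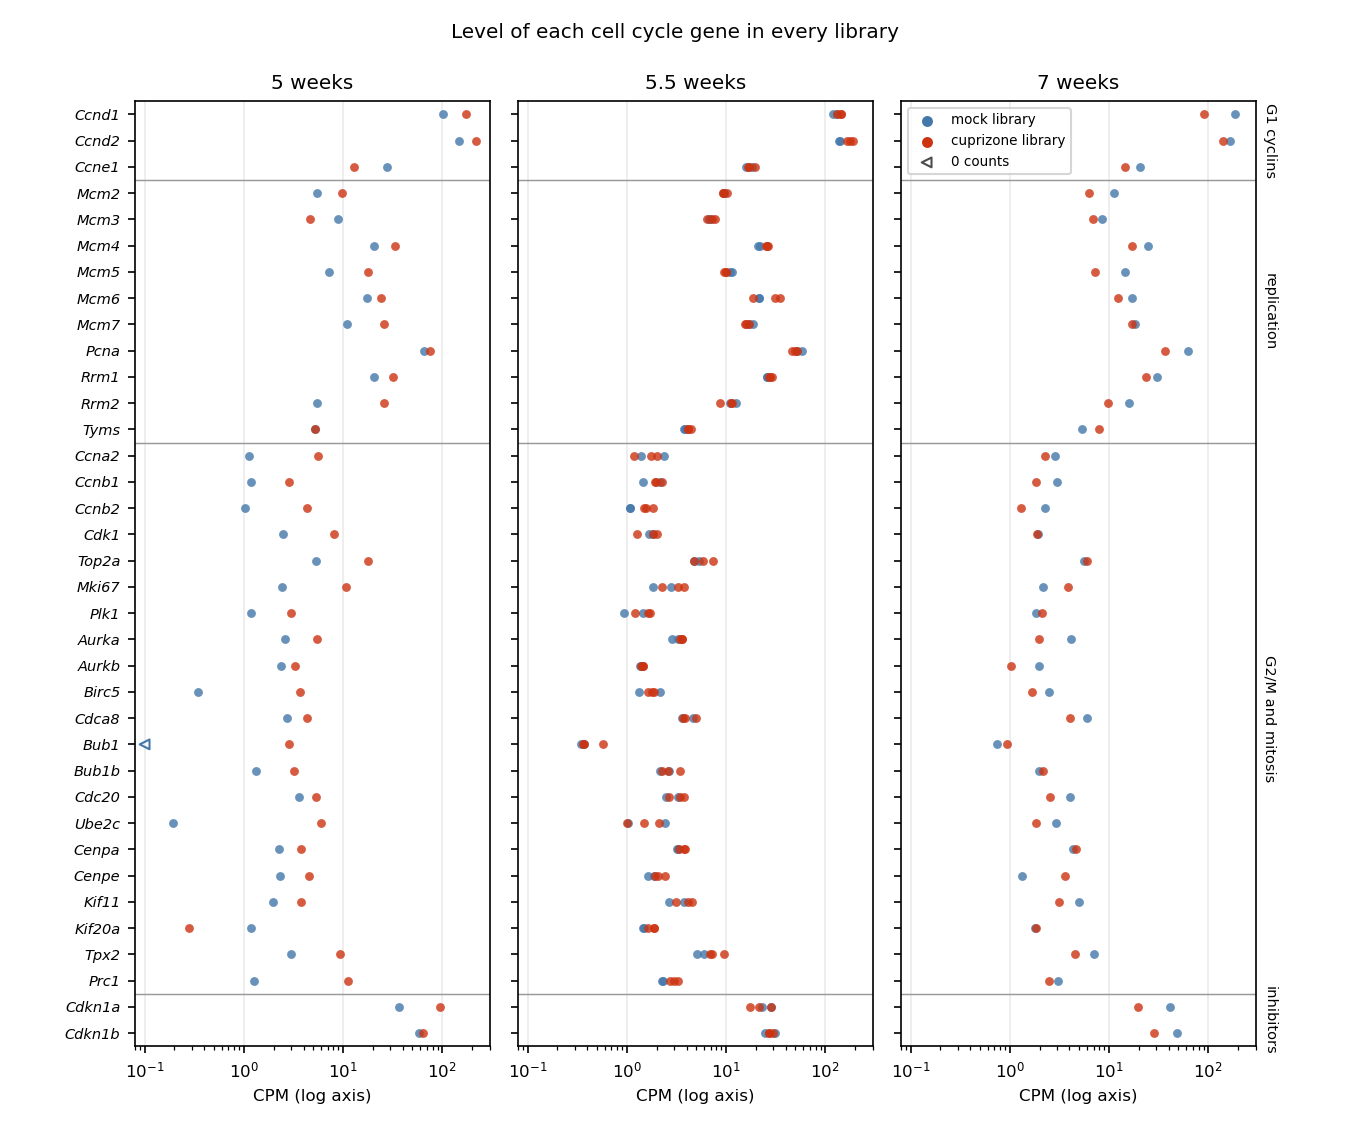
Level of each of the 36 genes in each of the 9 libraries, in CPM on a log axis scaled within each week. Red points are cuprizone and blue points mock libraries, and the open triangle is a mock library with 0 counts of Bub1. At 5 weeks most mitotic genes have the cuprizone point to the right of the mock point (Prc1, 11.3 against 1.27 CPM), and at 5.5 weeks the points lie close together.

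At 5 weeks, the end of cuprizone feeding, the mitotic genes were higher in the cuprizone library than in the mock library, and replication genes differed less. Of 21 mitotic genes 14 were at least 2-fold higher and 1 was at least 2-fold lower, with a median ratio of 2.54. Bub1, Ube2c and Birc5 (0, 0.195 and 0.342 CPM in mock) were measured only because the cuprizone library reached 1 CPM. Kif20a (0.279 CPM after cuprizone) was measured only through the mock library, so these counts are partly set by the filter. Of 10 replication genes 3 were at least 2-fold higher and 0 lower (median ratio 1.58). Over all 36 genes 18 were at least 2-fold higher and 2 lower, while 13.1% and 15.9% of 14946 measured genes were. Among genes of a low level, with a mean of 0.5 to 12 CPM, the shares were 24.5% and 24.1%. Such genes also had to reach 1 CPM in 1 of the 2 libraries. Near the low end of the range this forces a 2-fold difference, so these shares are partly set by the filter. With 1 library per group there is no test, and the 95% intervals given with ratios are exact (Clopper-Pearson) and cover counting error only, not differences between mice. The interval lay above 1 for 31 genes, below 1 for 3 and across 1 for 2 (Tyms and Aurkb). The share of all genes with such intervals was not computed, so these counts have no baseline.

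The G1 cyclins differed in direction at 5 weeks. Ccnd1, the D-type cyclin induced by growth factors, had 172 CPM in the cuprizone and 102 CPM in the mock library, 1.69-fold (1.6 to 1.78). Ccnd2, a second D-type cyclin, had 219 against 147 CPM. Ccne1, which activates CDK2 at the start of S phase, was in contrast 2.14-fold lower (1.85 to 2.48; 12.9 against 27.5 CPM).

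Rrm2, the regulatory subunit of ribonucleotide reductase, which makes the building blocks of DNA, had the largest 5-week ratio of the 10 replication genes at 4.72 (3.84 to 5.84; 25.6 against 5.42 CPM). Its catalytic partner Rrm1 was at 1.54 (31.6 against 20.5 CPM). The 6 subunits of the MCM helicase, which unwinds DNA at the fork, did not keep step. Mcm5 was at 2.48 (2.05 to 3.03) and Mcm7 at 2.34 (2.00 to 2.74). Mcm2, Mcm4 and Mcm6 were at 1.79, 1.63 and 1.38, and Mcm3 was 1.94-fold lower (4.60 against 8.93 CPM). Pcna, the sliding clamp of the polymerases, was at 1.17 (75.6 against 64.8 CPM), and Tyms, thymidylate synthase, had 5.25 against 5.17 CPM.

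Mitotic genes with larger 5-week ratios came from several steps of division. Prc1, which bundles the microtubules of the spindle midzone, had 11.3 CPM (243 counts) in the cuprizone library and 1.27 CPM (26 counts) in the mock library, 8.89-fold (5.92 to 13.9). Mki67, the proliferation marker Ki-67 that coats mitotic chromosomes, had 10.6 against 2.44 CPM (4.36-fold, 3.20 to 6.04). Top2a, the topoisomerase that untangles replicated DNA, had 17.8 against 5.32 CPM (3.34-fold, 2.70 to 4.17). The intervals of these 3 genes lay above 2.

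The kinase Cdk1, which drives entry into mitosis, had 8.08 against 2.49 CPM at 5 weeks (3.25-fold, 2.36 to 4.53). Its cyclin partners were higher too: Ccna2 was at 4.96 (3.16 to 8.13), Ccnb2 at 4.26 (2.63 to 7.2) and Ccnb1 at 2.46 (1.51 to 4.12). Among spindle genes, Tpx2, an activator of the Aurora A kinase, was at 3.17 (2.37 to 4.29), the kinase Plk1 at 2.54 and Aurka itself at 2.12. The kinesins Cenpe and Kif11 were at 1.98 and 1.95.

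Checkpoint and exit genes held both the highest and the lowest ratios, on few counts in 1 of the 2 libraries. Ube2c, the ubiquitin-conjugating enzyme of the anaphase-promoting complex, was 30.7-fold higher (11.7 to 114; 5.99 against 0.195 CPM). Birc5, survivin, was 10.7-fold higher (4.97 to 27.6; 3.67 against 0.342 CPM). Bub1, a checkpoint kinase, had 61 counts against 0 and was at least 19.3-fold higher, taking a floor of 3 counts in the mock library. Its relative Bub1b was at 2.43 (1.54 to 3.95). Cdca8 and Aurkb, which work with Birc5 in the chromosomal passenger complex, were at 1.58 and 1.41. Cdc20, an activator of the anaphase-promoting complex, was at 1.49 and the centromeric histone Cenpa at 1.70. Kif20a, a kinesin of late mitosis, was 4.20-fold lower (1.67 to 12.6; 0.279 against 1.17 CPM), the only mitotic gene with a lower level.

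Of the inhibitors, Cdkn1a, the p21 protein that p53 induces, had 94.6 CPM in the 5-week cuprizone library and 37.0 CPM in the mock library, 2.56-fold (2.35 to 2.79). Cdkn1b, p27, which holds resting cells in G1, had 64.6 against 59.0 CPM (1.10-fold, 1.01 to 1.18). Mitotic genes and the inhibitor Cdkn1a were thus both higher in the same library.

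The 5 deposited 5-week columns give 6 pairings, although 3 of the columns are not independent counts, and the pairings show which ratios depend on the column used. Across them Prc1 was at 8.17 to 8.89, Mki67 at 4.13 to 4.63, Top2a at 3.13 to 3.77, Cdk1 at 3.09 to 3.65, Ccna2 at 4.07 to 4.96 and Rrm2 at 4.15 to 6.03. Cdkn1a was at 2.38 to 3.45 and Plk1 at 2.39 to 3.51. Other ratios moved widely: Ube2c from 2.33 to 41.1, Birc5 from 1.72 to 11.5, Tpx2 from 2.24 to 7.90 and Ccnb1 from 1.85 to 6.30. Kif20a (0.238 to 1.86) and Mcm3 (0.515 to 1.94) lay on either side of 1, and Ccne1 at 0.468 to 0.722. Further genes lay on either side of 2. Of these, Mcm5 (1.54 to 2.48), Mcm7 (1.99 to 2.34) and Aurka (1.73 to 2.12) were above 2 in the pair used. The others were below 2 in it: Ccnd1 (1.57 to 2.23), Mcm2 (1.66 to 2.11), Mcm6 (1.05 to 2.08), Tyms (1.01 to 2.49), Cdc20 (1.49 to 2.44), Cdca8 (1.26 to 2.61) and Cenpa (1.10 to 2.57) and Kif11 (1.95 to 4.09). Ccnb2 ranged from 4.20 to 6.83.

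**Figure D2:**
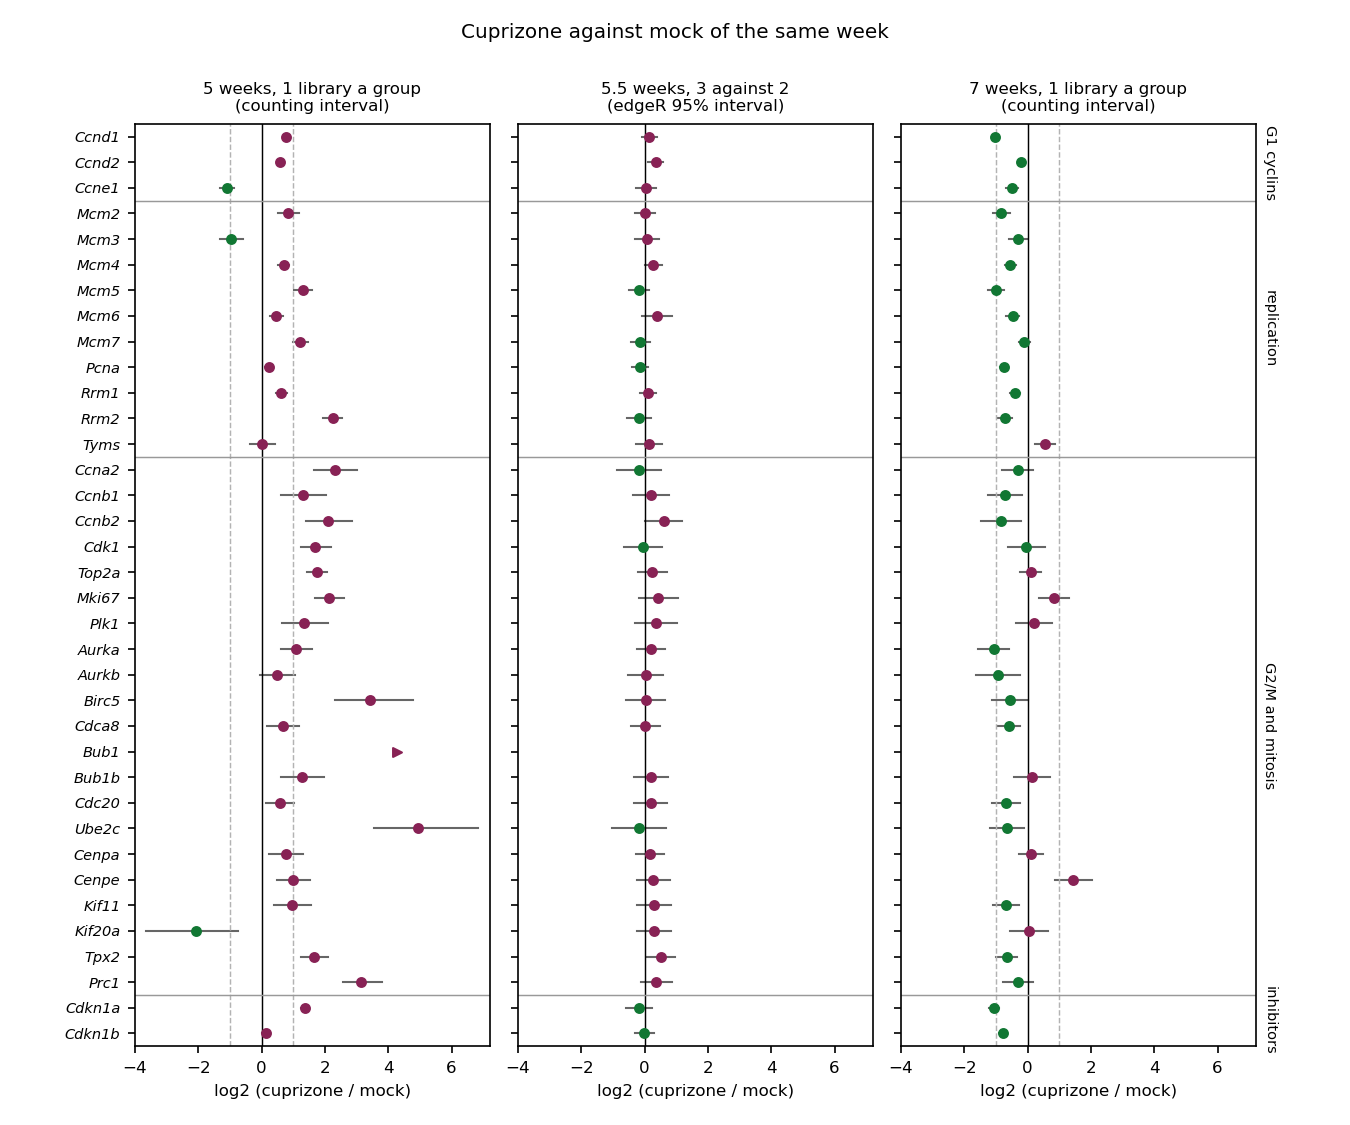
Log2 ratio of cuprizone to mock for each of the 36 genes at 5, 5.5 and 7 weeks, purple above 0 and green below. Bars are exact 95% counting intervals at 5 and 7 weeks (1 library per group) and edgeR 95% intervals at 5.5 weeks (3 against 2), the triangle is a lower bound and dashed lines mark 2-fold. At 5 weeks 20 of 21 mitotic genes lie above 0, at 5.5 weeks the values stay between −0.19 and 0.60, and at 7 weeks 27 of 35 lie below 0.

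At 5.5 weeks, shortly after cuprizone was withdrawn, differences were small and 0 of 35 tested genes were called higher or lower by edgeR's quasi-likelihood test with Benjamini-Hochberg adjustment over all genes. Of 16086 genes tested, 1.08% were called higher and 0.392% lower. DESeq2 called 0 as well, and 4 of the 35 had an unadjusted edgeR p under 0.05, a share near the 10.9% of all genes. Bub1 was too low to be tested. The median log2 fold change was 0.15, with 26 genes above 0 and 9 below, and the values ran from −0.19 (Mcm5) to 0.60 (Ccnb2). In 11 of the 35 all cuprizone libraries lay above both mock libraries and in 2 they lay below. The shares over all genes were 13.2% and 14.8%. The labels call the libraries biological replicates, and the p-values measure the spread between them.

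Ccnd2 had the smallest p of the set at 5.5 weeks. It had 140 and 139 CPM in mock and 176, 192 and 167 CPM after cuprizone. The groups did not overlap, and the log2 fold change was 0.36 ± 0.11 (SE), which did not pass the test (edgeR adjusted p = 0.176). Ccnd1 had 120 and 131 CPM in mock and 143, 145 and 131 CPM after cuprizone, and the groups overlapped. Ccne1 was at 0.05 ± 0.14 on the log2 scale.

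Among replication genes, Mcm4 had 21.0 and 21.9 CPM in mock and 25.9, 25.5 and 26.3 CPM after cuprizone (log2 0.27 ± 0.12 SE, edgeR adjusted p = 0.453). The groups did not overlap. Mcm6 had 21.7 and 21.4 CPM in mock and 34.9, 18.5 and 31.2 CPM after cuprizone, so cuprizone 2 lay below both mock libraries and the other two above. Without cuprizone 2 Mcm6 was called higher, the 1 call that leaving out a library gave. Pcna and Mcm5 were lower in each cuprizone library than in both mock libraries, Pcna with 49.9, 51.8 and 46.5 against 52.1 and 57.9 CPM (log2 −0.16 ± 0.11 SE, edgeR adjusted p = 0.682). Rrm2, the replication gene with the largest ratio at 5 weeks, had 11.3, 11.4 and 8.63 CPM against 10.9 and 12.7 CPM, and the groups overlapped.

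Of 20 tested mitotic genes 7 had all cuprizone libraries above both mock libraries and 0 had them below, against 13.2% and 14.8% of all genes. These were Ccnb2, Aurka, Cenpa, Cenpe, Kif20a, Tpx2 and Prc1. Tpx2 had 5.05 and 6.05 CPM in mock and 7.26, 9.65 and 6.83 CPM after cuprizone (log2 0.51 ± 0.20 SE, edgeR adjusted p = 0.357). Ccnb2 had 1.07 and 1.08 CPM in mock and 1.82, 1.49 and 1.57 CPM after cuprizone (log2 0.60 ± 0.27 SE, edgeR adjusted p = 0.453). Prc1 had 2.25 and 2.34 CPM in mock and 2.97, 3.25 and 2.72 CPM after cuprizone (log2 0.38 ± 0.22 SE, edgeR adjusted p = 0.587). None of these passed the test, though each kept its groups apart.

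The proliferation markers overlapped at 5.5 weeks. Mki67 had 2.77 and 1.82 CPM in mock and 3.31, 3.79 and 2.26 CPM after cuprizone, a fold of 1.35 with a 95% interval from 0.885 to 2.07 (edgeR adjusted p = 0.628). Top2a had 5.29 and 4.78 CPM in mock and 5.81, 7.35 and 4.79 CPM after cuprizone (fold 1.18, 0.860 to 1.63). Cdk1 was at a fold of 0.975 (0.643 to 1.48) and Ube2c at 0.886 (0.489 to 1.6). For Ccnb2, Mki67 and Plk1 the upper limits of the fold were 2.29, 2.07 and 2.04, so their intervals hold a 2-fold difference. Summed over the 21 mitotic genes, mock had 46.4 and 54.0 CPM and cuprizone 59.1, 65.5 and 52.5 CPM.

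Neither inhibitor was called at 5.5 weeks. Cdkn1a had 22.8 and 28.2 CPM in mock and 17.4, 28.4 and 21.7 CPM after cuprizone, overlapping, with a fold of 0.879 (0.659 to 1.17; edgeR adjusted p = 0.781). Cdkn1b was at a fold of 0.996 (0.811 to 1.22).

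At 7 weeks, after 2 weeks of normal chow, most of the set was lower in the cuprizone library, by an amount that depends on the scaling. With TMM, 27 of 35 measured genes lay below the mock library, 4 of them at least 2-fold, and 1 was at least 2-fold higher. Of 16196 measured genes 4.27% were at least 2-fold lower and 20.3% at least 2-fold higher. Scaled by total counts, which moves the median log2 ratio of all genes up by 0.365 (from −0.015 to 0.35, against a shift of 0.10 at 5 weeks), 21 of 35 lay below, 0 at least 2-fold, and 2 were at least 2-fold higher. The median log2 ratio of the set was −0.54 with TMM and −0.18 with total counts. The scaling moves each gene by the same amount, so the distance from the median of all genes is the same in both. There is no test at 7 weeks, and the library cannot be left out, being the one cuprizone library of that week.

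The 4 genes at least 2-fold lower at 7 weeks with TMM scaling came from all 4 groups of the set. Ccnd1 had 90.2 CPM in the cuprizone and 186 CPM in the mock library, 2.06-fold lower (1.96 to 2.16). Cdkn1a had 19.8 against 41.4 CPM (2.09-fold lower, 1.88 to 2.32), Mcm5 7.22 against 14.5 CPM (2.01-fold lower, 1.69 to 2.39) and Aurka 1.96 against 4.11 CPM (2.09-fold lower, 1.5 to 2.94). Of the replication genes 9 of 10 were lower and Tyms was higher (7.86 against 5.38 CPM, 1.46-fold, 1.18 to 1.82). Pcna had 36.8 against 62.2 CPM. In other pairings of the deposited 7-week columns the 4 genes lay on either side of a 2-fold difference, Ccnd1 at 0.442 to 0.536 and Cdkn1a at 0.439 to 0.502.

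The mitotic genes did not share a direction at 7 weeks. Of 20 measured, 7 lay above and 13 below the mock library with TMM, and 10 and 10 with total counts. At least 2-fold, 1 was higher and 1 lower, while 42.2% and 4.18% of genes with a mean of 0.5 to 12 CPM were. Both shares are partly set by the filter at 1 CPM. Cenpe, the kinesin that moves chromosomes to the spindle equator, was 2.71-fold higher (1.84 to 4.08; 3.64 against 1.34 CPM) and Mki67 1.78-fold higher (1.28 to 2.5; 3.86 against 2.17 CPM). Top2a was at 1.07 (6.04 against 5.64 CPM) and Cdk1 at 0.975 (1.89 against 1.94 CPM). Prc1 was at 0.817 (0.585 to 1.14). The counting interval crossed 1 for 9 of the 20, and the share over all genes was not computed.

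The effect of cuprizone was compared between weeks in an edgeR fit of the 9 libraries, which assumes that a lone library varies like the 5.5-week groups. The log2 effect at 5 weeks was larger than at 5.5 weeks for 8 of 21 mitotic genes, 3 of 10 replication genes and Cdkn1a, while 8.91% of 20292 genes had a larger effect. It was lower, as a signed value, for Kif20a, Mcm3 and Ccne1, against 14.3% of genes. Each of these lay above mock at 5.5 weeks and below it at 5 weeks. Between 7 and 5.5 weeks it was lower for Ccnd1, Mcm4, Aurka and Tpx2 (6.92% of genes) and larger for 0 (10.3%). Each of these lay above mock at 5.5 weeks and below it at 7 weeks. The fit used TMM, while total counts move the 7-week log2 ratios up by 0.365. How far the 7-week differences depend on the scaling was not tested. The 3 weekly comparisons use separate mock libraries, but week 5 and batch 1 cannot be told apart.

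Beyond the set, 11 of 27 measured further mitotic genes were at least 2-fold higher at 5 weeks and 0 lower, against 24.5% and 24.1% of genes with a mean of 0.5 to 12 CPM. A gene near 0 in the mock library was measured only where the cuprizone library reached 1 CPM, and the reverse, so these counts are partly set by the filter. Espl1 and Sgo1, named after their values were seen, had 0 counts after cuprizone against 16 and 12 in mock and were left out as too low. With 1 mock count, Foxm1, a transcription factor of the G2 programme, was 42.8-fold higher (7.30 to 1728; 45 counts against 1). Knl1, a kinetochore scaffold, and Kif23, a kinesin of cytokinesis, had 102 and 67 counts against 0 and were at least 32.3-fold and 21.2-fold higher. Kif4, a chromosome-bound kinesin, was at 11.8 (4.79 to 37.6). Of 25 further replication genes 5 were higher and 1 lower, beside 13.1% and 15.9% of all measured genes. Chaf1b, a histone chaperone of the fork, was at least 13.6-fold and Pole, a leading-strand polymerase subunit, at least 7.29-fold higher, each from 0 mock counts. The flap nuclease Fen1 was at 3.49, the helicase cofactor Cdc45 at 2.49 and the initiation factor Mcm10 at 0.302.

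Of 17 measured genes of the G1, E2F and RB group 2 were at least 2-fold higher and 3 lower at 5 weeks, shares near the 13.1% and 15.9% of all measured genes. Skp2, which targets p27 for destruction, was at 13.5 (5.94 to 37.8) and Rb1, the brake on E2F, at 3.66 (3.18 to 4.22). The transcription factor E2f1 was at 0.435, the phosphatase Cdc25a at 0.424 and the kinase Cdk6 at 0.418. Of 4 other measured CDK inhibitors 1 was higher: Cdkn2b, p15, with 34 counts against 0 (at least 10.8-fold). Of 13 p53 target genes 4 were higher and 0 lower, beside the same 13.1% and 15.9%. Eda2r had 73 counts against 0 (at least 23.1-fold), Trp53inp1 was at 3.38, the stress gene Gadd45a at 2.48 and Sesn2 at 2.09. With 0 mock counts, Cdkn2b and Eda2r were measured only because the cuprizone library reached 1 CPM. The counts of these lists are thus partly set by the filter. Among genes with a mean of 0.5 to 12 CPM the shares were 24.5% and 24.1%.

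At 5.5 weeks 0 genes of these further lists were called by edgeR, out of 31 mitotic, 26 replication, 19 G1, E2F and RB, 4 CDK inhibitor and 13 p53 target genes tested. At an unadjusted edgeR p under 0.05 the counts were 4, 1, 1, 0 and 2. Of all 16086 genes tested, 1.08% were called higher, 0.392% were called lower and 10.9% had such an unadjusted p. At 7 weeks, where 4.27% of all measured genes were at least 2-fold lower and 20.3% higher with TMM, 5 of 24 measured replication genes were lower, among them Fen1 at 0.30 and Cdc45 at 0.346, and 1, Pole, was higher at 2.28. With total counts 2 were lower and 2 higher. Of 28 mitotic genes 2 were higher (the spindle pole gene Aspm at 3.00 and Knl1 at 2.79) and 1 lower (Nek2 at 0.413). Of 17 measured G1, E2F and RB genes 2 were higher, Cdk6 at 2.42 and Rbl1 at 2.05, and 0 lower. The inhibitors Cdkn1c and Cdkn2b were at 5.44 and 2.02, and of 12 p53 targets Bbc3 was at 5.07 and Plk2 at 0.381.

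**Figure D3:**
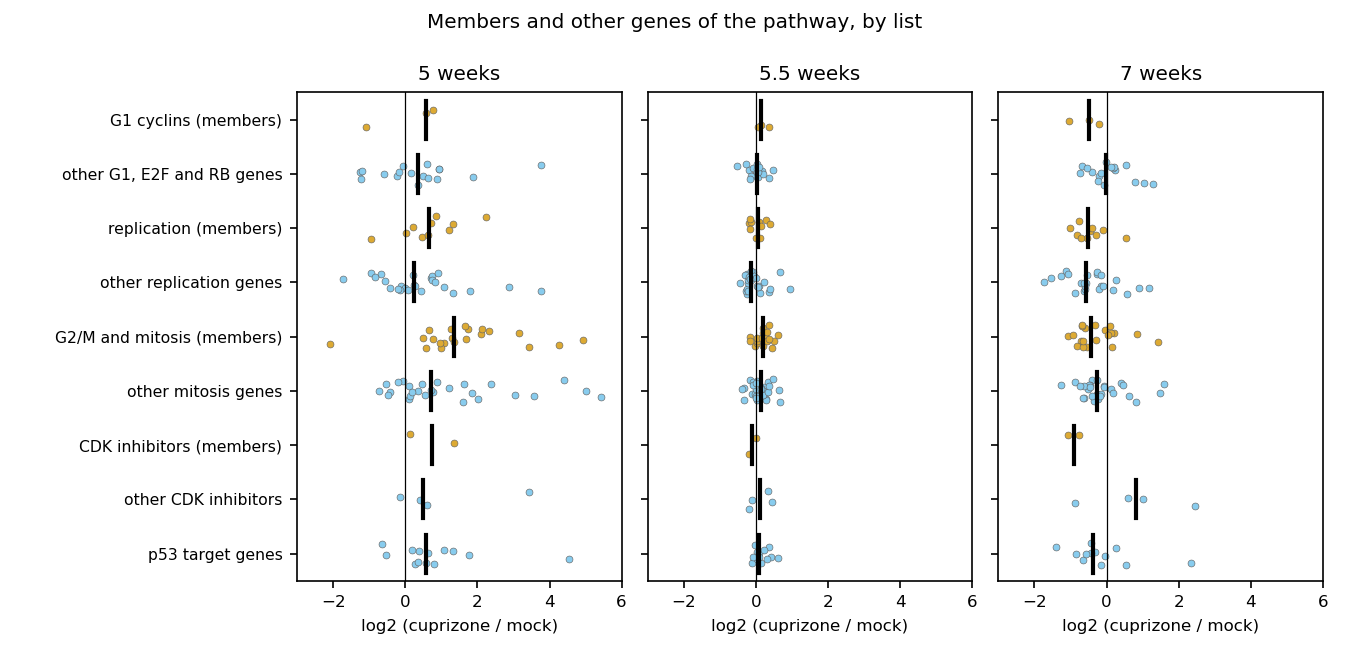
Log2 ratio of cuprizone to mock for the 36 genes (gold) and further genes of the pathway (blue) by list and week; each point is a gene, the vertical spread within a list is for legibility, and the black bar is the list's median. At 5 weeks the median is 1.34 for the 21 mitotic genes and 0.71 for the further mitotic genes, and all lists lie near 0 at 5.5 weeks.

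Markers of cell types that could divide were read beside the set. At 5 weeks, where the 21 mitotic genes summed to 119.5 CPM after cuprizone and 39.7 CPM in mock, 8 markers of oligodendrocyte precursors and newly formed oligodendrocytes summed to 202 against 155 CPM (1 at least 2-fold higher, 1 lower). The 10 microglial markers summed to 63.7 against 44.1 CPM (4 of 9 measured higher, 0 lower), and 7 markers of neural stem cells and neuroblasts to 92.1 against 75.7 CPM (3 higher, 0 lower). The 8 endothelial markers summed to 5.85 against 30.1 CPM (of 3 measured, 0 higher and 3 lower). Of all measured genes 13.1% were at least 2-fold higher and 15.9% lower. Among genes with a mean of 0.5 to 12 CPM the shares were 24.5% and 24.1%. The 8 astrocyte markers summed to 18304 against 8701 CPM, a sum carried by Gfap (9679 against 901 CPM), while 4 of the 8 were lower in the cuprizone library. At 5.5 weeks the precursor markers summed to 262.6, 255.2 and 223.7 CPM after cuprizone and 184.0 and 161.9 CPM in mock. Gpr17 was called higher, 1 of 8, beside 1.08% of all genes tested. The microglial markers summed to 43.5, 57.4 and 41.0 CPM after cuprizone and 32.2 and 35.1 CPM in mock, with 0 of 9 tested called. The groups overlapped in the sums of stem cell and of endothelial markers. At 7 weeks microglial markers were at least 2-fold higher in 10 of 10 cases, beside 20.3% of all measured genes. Endothelial markers summed to 250 against 26.5 CPM, in the same library as the 7-week values above. The part these cells take in the cell cycle values was not tested.

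**Figure D4:**
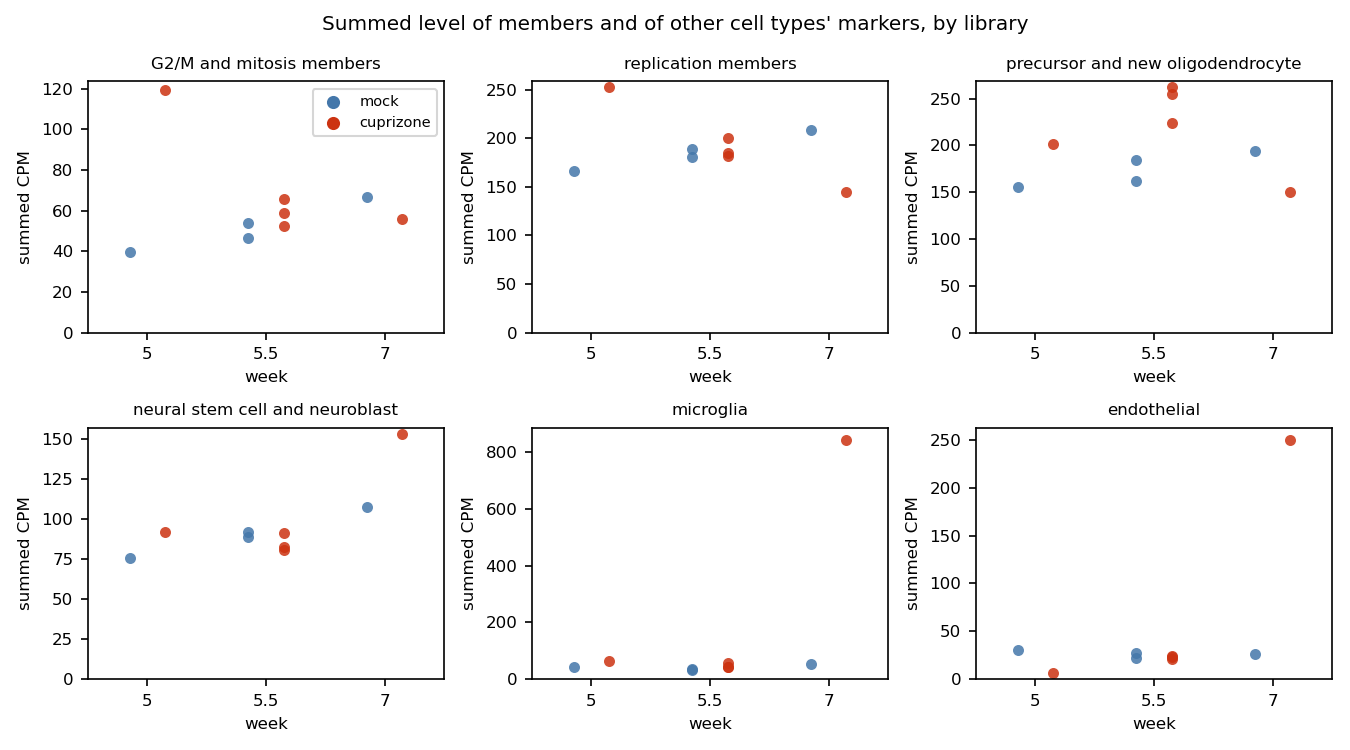
Summed CPM in each of the 9 libraries for the mitotic and replication genes and for markers of 4 other cell types; red points are cuprizone and blue points mock libraries, and CPM are scaled within each week. The mitotic sum stands out in the 5-week cuprizone library (119.5 CPM), and the microglial and endothelial sums in the 7-week cuprizone library (844 and 250 CPM).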

How the data were processed

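Ribosome-bound RNA was sequenced from immunoprecipitates of GFAP-Cre RiboTag mice in 17 libraries of 6 groups. The deposited files hold counts per Ensembl gene, without normalization, and per the submitters' processing notes the tools were FastQC 0.11.9, STAR 2.5.4b and featureCounts 1.6.0. The notes name the builds GRCm38/mm10 and GRCm39/mm39 without their role, so no coordinates of the counted genes are given, and the strand setting is not given in the sources used here. Per the labels' protocols, RNA had RIN values over 8.0. Symbols came from GENCODE M21, with 36 of 36 matched. Exons of Kif20a and Cdc23 overlap over 29.3% of Kif20a, of Ccnd1 and its neighbour over 23.4%, of Ube2c and Tnnc2 over 22.8%, of Ccna2 and Exosc9 over 12.5% and of Prc1 and Rccd1 over 11.1%, and Pcna, Tyms, Ccnb1 and Ccnb2 have pseudogenes, so reads may be shared.

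The members and lists were chosen with earlier results of these data known. Among genes with 500 or more counts, 8 libraries had 46.6% to 96.2% of values lying 1 to 10 counts above another library of their group. They were represented by that library. This left cuprizone 1, 2 and 3 and mock 1 and 3 at 5.5 weeks, cuprizone 1 and mock 2 at 5 weeks, and cuprizone 2 and mock 3 at 7 weeks.

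At 5.5 weeks edgeR 4.0.16 was run with TMM scaling on the genes that passed filterByExpr at a minimum count of 10 (robust quasi-likelihood F test, two-sided, Benjamini-Hochberg over 16086 genes, threshold 0.05, 3 residual and a median of 8.64 prior degrees of freedom). DESeq2 1.42.0 was an alternative. At 5 and 7 weeks a gene was measured where 1 of the 2 libraries reached 1 CPM, so that a gene low in both was left out. Its ratio of TMM-scaled CPM carries an exact 95% interval of the ratio of counts, and those past 2-fold were tallied. Reads carry no molecular identifiers, so intervals and the floor of 3 counts cover counting error only. All 36 members could be named; of the other lists, at most the 4 largest past the threshold in each direction, list and week. The fits were tested on simulated counts. Alternatives were other size factors and filters, each library left out, a replicate block, the fit of 9 libraries and the libraries as deposited. The values of 1 marker gene are not reported here.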

Additional observations from a re-analysis of the deposited data

Results flagged for a closer look

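The effect of cuprizone on 15 genes differed between 5 and 5.5 weeks in the edgeR fit of 9 libraries (interaction term, Benjamini-Hochberg adjusted over 20292 genes). Differences are 5 minus 5.5 weeks on the log2 scale. Of the 20292 genes, 8.91% had a larger and 14.3% a lower effect at 5 weeks. Of the mitotic genes, Bub1 was at 8.83 (no count in the 5-week mock library, so the value is no bound), Ube2c at 5.02, Birc5 at 3.31, Prc1 at 2.71, Ccna2 at 2.41, Cdk1 at 1.67, Mki67 at 1.62 and Top2a at 1.43. Kif20a was at −2.42. Of the replication genes, Rrm2 was at 2.34, Mcm5 at 1.44, Mcm7 at 1.29 and Mcm3 at −1.10. Cdkn1a was at 1.48 and Ccne1 at −1.22. The edgeR adjusted p was 2.9e-05 for Rrm2, 0.000149 for Prc1 and 0.0178 for Mki67. The 5-week groups have 1 library each, and the weeks differ in batch, so week and batch cannot be told apart. In other pairings of the deposited 5-week columns Kif20a and Mcm3 changed direction against mock.

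In the same fit the effect at 7 weeks was lower than at 5.5 weeks for Aurka, Ccnd1, Tpx2 and Mcm4. The differences (7 minus 5.5) were −1.23, −1.16, −1.13 and −0.78. Each gene lay above mock at 5.5 weeks and below it at 7 weeks. In the comparisons by week the log2 ratios were 0.20 and −1.06 for Aurka and 0.15 and −1.04 for Ccnd1. They were 0.51 and −0.65 for Tpx2 and 0.27 and −0.54 for Mcm4. The fit used TMM, and total counts move the 7-week log2 ratios up by 0.365. The edgeR adjusted p was 0.0011 for Ccnd1 and 0.0491 for Aurka. The 7-week cuprizone library is the one with raised microglial and endothelial markers, and the part of this in the values was not tested.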

How the results depend on the processing

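The number of genes called at 5.5 weeks was 0 higher and 0 lower with other size factors, no filter, a stricter filter, DESeq2, the fit of 9 libraries and the mean of mock 1 and 2. With any 1 library left out, 0 to 1 were called higher (Mcm6, without cuprizone 2) and 0 to 0 lower. With the replicate block 1 was called higher (Mcm6), with the 6 libraries as deposited 1 (Ccnd2) and with all 17 as deposited 2 (Ccnd2 and Mcm4). The replicate numbers are not stated to mark a shared litter or day, and cuprizone and mock libraries share only numbers 1 and 3. Their deviations from the group means correlated at 0.087 and −0.103. With 2 mock libraries the deviations of mock 1 and mock 3 mirror each other. These values therefore cannot show whether a number marks a shared litter or day.

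At 5 weeks the count at least 2-fold higher was 12 to 20 with other CPM minimums, total counts or the mean of all deposited libraries. It was 16 to 24 over the other pairings of deposited columns (chosen after seeing the data). The count at least 2-fold lower was 1 with a CPM minimum of 5, 1 with total counts, 0 with the mean of all deposited libraries and 0 to 1 over the pairings. The edgeR fits instead count genes with an adjusted p under 0.05, without a fold threshold, so their counts are not 2-fold counts. With all 17 libraries as deposited 31 were called higher and 1 lower, and with the replicate block 31 and 1. Both treat repeated libraries as separate, and the share over all genes was not tallied.

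At 7 weeks the count higher was 0 with a CPM minimum of 5, 2 with total counts, 3 with 17 libraries and 3 with the block. The count lower was 0 with total counts, 8 in the fit of 9 libraries, 16 with 17 libraries and 17 with the block. As at 5 weeks, the edgeR fits (9 libraries, 17 libraries and the block) count genes with an adjusted p under 0.05, without a fold threshold. Their counts are therefore not 2-fold counts, and those with 17 libraries treat repeated libraries as separate. The share over all genes was not tallied. Of the values of single genes under the alternatives, 778 kept their call or stayed within their counting interval, 65 moved outside it and 5 passed the test (Ccnd2, Mcm4 and Mcm6, named above). The mean of all deposited libraries gave no ratio for Bub1 at 5 weeks, whose mock mean is 0. Depth limits the ratios of mitotic genes, whose mock counts at 5 weeks reach down to 0.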
